A study of Mus musculus with 4 samples.

Results

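Collagen crosslinking and hydroxylating enzymes were examined in NIH-3T3 cells, an established line of mouse embryonic fibroblasts. The set held 10 genes out of 36838 gene names on the arrays: the lysyl oxidases Lox, Loxl1, Loxl2, Loxl3 and Loxl4, the lysyl hydroxylases Plod1 and Plod2, the prolyl 4-hydroxylase subunits P4ha1 and P4ha2, and the collagen chaperone Serpinh1 (HSP47). Its members were all gene probes on the array whose transcript identifier maps to these symbols, which gave 17 probes out of 55378 with a value on all arrays, and none of the 17 was lost to a filter.

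The study asked which genes respond to AR7, CA39 and CA77, synthetic activators of chaperone-mediated autophagy (CMA), the lysosomal degradation of single marked proteins. CA39 and CA77 are analogues of AR7. Total RNA was hybridised to 4 one-colour Agilent arrays, 1 per group: untreated cells, and cells collected 24 h after 20 µM AR7, 20 µM CA39 or 20 µM CA77. All 4 cultures were the same wild-type line, grown to confluency with serum. The compounds were given in DMSO and the control is labelled as having no treatment, so vehicle and compound cannot be told apart in a difference that all 3 treated cultures share. With 1 array per group no difference has a replicate check, no test could be run and no p-value is given.

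Fibroblasts build collagen in steps that these enzymes carry out. In the endoplasmic reticulum, prolyl 4-hydroxylases convert proline residues of new collagen chains to hydroxyproline, which keeps the triple helix stable at body temperature. There, lysyl hydroxylases modify lysine residues, and HSP47 holds the folded helix until it leaves for the Golgi. Outside the cell, lysyl oxidases, which are copper enzymes, oxidise lysine and hydroxylysine side chains so that neighbouring collagen and elastin molecules become crosslinked. Several of these genes are known targets of hypoxia-inducible factor (HIF) and of transforming growth factor beta (TGF-beta) in fibroblasts.

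Levels are log2 spot intensities after background correction and quantile normalization, and a difference is the level on 1 array minus that on another. A level says how bright a probe was and cannot be set against the level of another probe. The only repeat measurements were probes printed 10 times on an array. The median standard deviation over their spots, times the square root of 2, gave a measurement tolerance of 0.16 for a log2 difference. It is 1 standard deviation of the spot error of a difference, so unchanged probes can exceed it by spot error alone. The spread between cultures is not part of it. A gene was called past 2-fold when its brightest probe differed by at least 1 on the log2 scale and was detected, that is well above background in the scanner software, on at least 1 of the 2 arrays. Of all probes, 69.7% were detected on the untreated array, 52.9% on that of AR7, 52.2% on that of CA39 and 61.6% on that of CA77. The position of an array on the slide (row 1 for the control, row 2 for the compounds) cannot be told apart from treatment, and scan 2 held the CA77 array alone. Of 9 fibroblast markers 7 to 8 were detected on each array, as were 3 of 3 endothelial and 2 to 3 of 3 smooth muscle markers. Haematopoietic markers, 2 of them on the array, were not detected with CA39. The epithelial marker Cdh1 was detected on no array, Epcam with CA39 alone, and Krt8 and Krt18 on all 4. The summed normalized intensity of 4 epithelial markers was 394 on the untreated array, 417 with AR7, 1508 with CA39 and 314 with CA77. On the same arrays the fibroblast sum was 871947, 735850, 988244 and 771435, with Pdgfrb detected with CA39 alone and Fap on the untreated array alone. Both sums were thus highest on the array that also carries the largest differences among the 10 genes, and their part in those differences was not tested. The fibroblast sum includes Col1a1, Col1a2 and Col3a1, which are also among the collagen chains below, so it is not separate from their differences. The RNA came from whole cultures, so a larger share of cells making an mRNA and more mRNA per cell cannot be told apart.

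P4ha2 and Lox were past 2-fold higher with CA39, and no member was past 2-fold with AR7 or CA77. With CA39, 2 of 10 members were past 2-fold, against 4.85% of 27894 gene names compared. With AR7 the count was 0 of 10, against 2.19% of gene names, and with CA77 it was 0 of 10, against 2.47%. Most other members were also higher with CA39, by less. By the brightest probe, 8 of 10 members were higher with CA39 by more than the tolerance, against 20.9% of gene names, and 0 were lower, against 27.2%. With AR7, 0 were higher (15% of gene names) and 5 were lower (17.5%), and with CA77, 1 was higher (19.4%) and 4 were lower (25.5%). Over the members the AR7 differences had a median of -0.13, those with CA39 one of 0.36 and those with CA77 one of -0.10, beside medians over all gene names of 0.00, 0.00 and -0.01. These 3 differences share the untreated array.

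By its brightest probe every member was detected on all 4 arrays, whereas the shares above include gene names not detected on some of them. Among the 20594 gene names detected on all 4 arrays, 23.6% were higher with CA39 by more than the tolerance and 3.37% were past 2-fold.

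**Figure D1:**
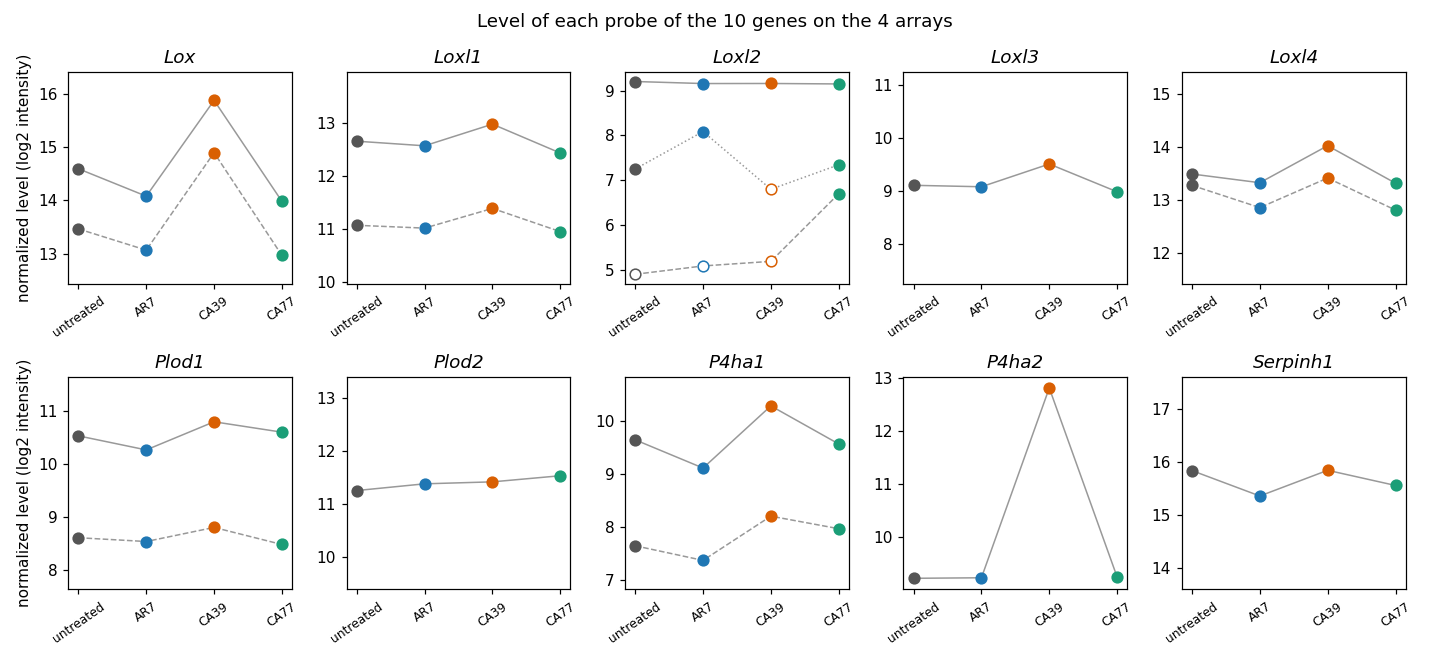
Normalized level (log2 intensity, y axis) of each of the 17 probes on the untreated, AR7, CA39 and CA77 arrays (x axis), 1 panel per gene, each line 1 probe with the solid line the brightest, and open circles values not well above background. P4ha2 stands at 9.22, 9.23 and 9.24 on 3 arrays and at 12.81 with CA39, both Lox probes peak with CA39, and Loxl2 shows probes that disagree.

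Lox, which encodes the founding lysyl oxidase, was measured by 2 probes. The brighter Lox probe read 14.60 on the untreated array, 14.08 with AR7, 15.89 with CA39 and 13.98 with CA77. Its second probe read 13.46, 13.06, 14.90 and 12.96 on the same arrays. Both probes thus put CA39 highest, the untreated array next, and AR7 and CA77 lowest and close together. Against untreated, the brighter probe differed by 1.29 with CA39 (2.45-fold higher) and the second by 1.44 (2.71-fold higher). With AR7 the brighter Lox probe was lower by 1.43-fold (log2 difference -0.52) and the second by 1.32-fold (-0.40). With CA77 the brighter Lox probe was lower by 1.53-fold (-0.61) and the second by 1.41-fold (-0.50). These decreases exceeded the tolerance and stayed short of 2-fold. Of the genes measured on both arrays, 2.19% stood above Lox with CA39, while 97.8% stood above it with both AR7 and CA77.

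Loxl1, an oxidase needed for elastic fibre upkeep, showed the same order with much smaller differences. Its brighter probe read 12.65 on the untreated array, 12.57 with AR7, 12.98 with CA39 and 12.43 with CA77. By either Loxl1 probe the CA39 difference from untreated was 0.32. With CA77 the brighter Loxl1 probe differed by -0.22, beyond the tolerance, and the second by -0.12, within it.

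Loxl2, an oxidase of collagen IV among other substrates, stayed within the tolerance by its brightest probe, which read 9.20, 9.16, 9.16 and 9.15. The other probes of Loxl2 did not give the same picture. The second probe read 7.25 on the untreated array, 8.09 with AR7 and 7.35 with CA77, and it was not well above background with CA39. By that probe Loxl2 was 1.78-fold higher with AR7 than untreated, a log2 difference of 0.84, and at least 2.32-fold lower with CA39 than with AR7. The third probe was detected with CA77 alone, where Loxl2 was at least 1.77-fold higher than untreated. A fold against a value not well above background is a lower bound, taken against the 1st percentile of detected signal on that array. No direction is given for Loxl2.

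Loxl3 and Loxl4, the remaining oxidases of the family, were both highest with CA39. The Loxl3 probe read 9.11 on the untreated array, 9.09 with AR7, 9.52 with CA39 and 8.99 with CA77. Its CA39 difference of 0.40 exceeded the tolerance, and its AR7 and CA77 differences of -0.03 and -0.12 did not. The brighter Loxl4 probe read 13.48, 13.32, 14.02 and 13.31. It differed from untreated by 0.53 with CA39, whereas the second Loxl4 probe differed by 0.14, within the tolerance. That second probe was the lower one with AR7 (-0.42) and CA77 (-0.47), where the brighter probe gave -0.16 and -0.17. Both Loxl4 probes therefore put CA39 above AR7 and CA77 and disagreed on where the untreated array lies between them.

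By the brightest probe, neither lysyl hydroxylase differed from untreated by more than 0.28 with any compound. Plod1, which hydroxylates lysines in the helical part of collagen, read 10.53 on the untreated array, 10.27 with AR7, 10.80 with CA39 and 10.60 with CA77 by its brighter probe. The CA39 difference was 0.27 for that probe and 0.19 for the second Plod1 probe, and the AR7 difference was -0.27 and -0.07. Plod1 was thus higher with CA39 by either probe and lower with AR7 by the brighter one only. Plod2, the hydroxylase of the telopeptide lysines from which the stablest crosslinks form, read 11.26 untreated, 11.38 with AR7, 11.42 with CA39 and 11.54 with CA77. By the brightest probe it was the only member whose highest level was on the CA77 array. The Plod2 difference was 0.28 with CA77, 0.13 with AR7, within the tolerance, and 0.16 with CA39, at its edge.

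P4ha1 and P4ha2 encode alternative catalytic subunits of prolyl 4-hydroxylase. P4ha2 had the widest range over the arrays of all 10 members, 3.59 on the log2 scale. It read 9.22 on the untreated array, 9.23 with AR7, 12.81 with CA39 and 9.24 with CA77. Levels on the other three arrays lay within the tolerance of each other. With CA39, P4ha2 was thus 12.0-fold higher than untreated, while its log2 differences were 0.01 with AR7 and 0.03 with CA77. Of 21393 genes measured on both arrays, 24 stood above P4ha2 in the CA39 difference. P4ha2 was read from 1 probe printed once, so no second probe checks it. The spot was not marked as an outlier on any array, and the 25 probes nearest to it on the grid had a median CA39 difference of 0.00 and a highest one of 0.79. Over 11 alternative ways of processing the arrays, its CA39 difference lay between 3.48 and 3.68.

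P4ha1 was highest with CA39 and lowest with AR7. Its brighter probe read 9.64 on the untreated array, 9.10 with AR7, 10.28 with CA39 and 9.56 with CA77. Its second probe read 7.64, 7.36, 8.20 and 7.96. The CA39 difference from untreated was 0.64 and 0.56 by these probes, and the AR7 difference was -0.53 and -0.28. The P4ha1 probes disagreed on CA77, with differences of -0.08 and 0.32.

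Serpinh1 (HSP47), the chaperone of folded collagen, read 15.84 on the untreated array, 15.37 with AR7, 15.85 with CA39 and 15.56 with CA77. It was 1.39-fold lower with AR7 (-0.48) and 1.21-fold lower with CA77 (-0.28). With CA39 it differed by 0.01, within the tolerance. Serpinh1 thus shared the lower levels of Lox with AR7 and CA77 and not the higher level with CA39.

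**Figure D2:**
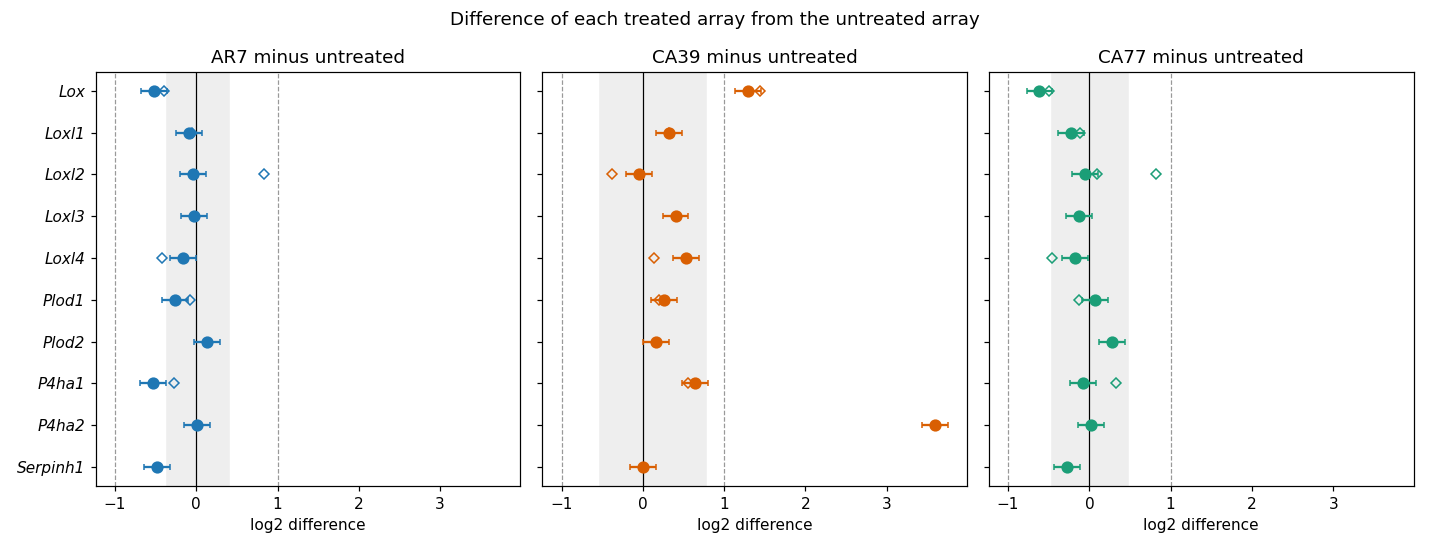
Log2 difference from the untreated array (x axis) of each gene (y axis), 1 panel per compound, where filled circles are the brightest probe with bars of the measurement tolerance (0.16), open diamonds are other probes (values against an undetected level at their bound), grey bands span the 5th to 95th percentile of all gene names and dashed lines mark 2-fold. P4ha2 (3.59) and Lox (1.29) lie beyond 2-fold with CA39, and no filled circle does with AR7 or CA77.

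Promoter sequences are shown for P4ha2, P4ha1 and Serpinh1, a choice made with their CA39 differences known, because HIF, a known regulator of both prolyl 4-hydroxylase subunits, binds a core of ACGTG or GCGTG. The 250 bases before the transcription start were read for 5 of the 10 genes (Loxl4, Plod1, P4ha1, P4ha2 and Serpinh1). Those of Lox, Loxl1, Loxl2, Loxl3 and Plod2 were not analysed here. The sequences are RefSeq annotation of build GRCm38.p6, read 5′ to 3′ on the gene's strand with the last base next to the start, and capitals mark the HIF core on either strand. P4ha2 lies at chr11:54100674-54100923 (plus strand), P4ha1 at chr10:59323046-59323295 (plus strand) and Serpinh1 at chr7:99353240-99353489 (minus strand).
P4ha2: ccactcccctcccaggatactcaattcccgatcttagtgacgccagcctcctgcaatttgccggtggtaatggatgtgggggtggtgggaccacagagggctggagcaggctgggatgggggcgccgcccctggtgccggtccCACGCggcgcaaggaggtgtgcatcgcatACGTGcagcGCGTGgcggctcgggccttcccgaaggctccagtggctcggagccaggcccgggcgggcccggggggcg
P4ha1: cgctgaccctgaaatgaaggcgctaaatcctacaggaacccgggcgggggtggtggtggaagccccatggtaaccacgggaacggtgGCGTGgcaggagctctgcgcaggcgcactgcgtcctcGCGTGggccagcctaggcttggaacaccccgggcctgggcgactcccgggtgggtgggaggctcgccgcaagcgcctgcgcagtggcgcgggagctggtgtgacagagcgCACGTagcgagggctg
Serpinh1: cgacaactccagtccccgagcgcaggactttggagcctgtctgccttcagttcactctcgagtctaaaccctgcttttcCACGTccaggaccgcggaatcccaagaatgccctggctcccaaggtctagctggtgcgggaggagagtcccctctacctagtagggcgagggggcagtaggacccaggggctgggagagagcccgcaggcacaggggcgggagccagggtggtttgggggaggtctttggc

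The HIF core occurred 3 times in the P4ha2 window, of which the 2 nearest the start begin 78 and 69 bases before it, and 3 times in the P4ha1 window, at 163, 126 and 16 bases. It occurred once in each of the Loxl4, Plod1 and Serpinh1 windows, of which Loxl4 (0.53) and Plod1 (0.27) were higher with CA39 by more than the tolerance and Serpinh1 (0.01) was not. Of 27025 promoter windows of this length, 38.6% held the core at least once and 6.69% held it 3 or more times. The GC box GGGCGG, searched on both strands, was found in all 5 windows and in 32.9% of all windows. The HIF core and the GC box are mostly G and C, and the 5 windows held 61.6% to 76% G and C. The shares over all windows were not matched for this content, so no enrichment can be read from them. The AP-1 letters TGANTCA (6.87% of all windows), the TEAD letters GGAATG (12.6%), the SMAD palindrome GTCTAGAC (0.174%), the CCAAT box (34.5%) and the direct repeat of a retinoic acid response element (0.0074%) were in none of the 5. These are matches of letters and say nothing on whether a factor was bound.

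The symbols whose 3 differences from untreated lay nearest to those of P4ha2, among 13015 symbols detected on all arrays, were Fndc4, Mllt1, Uhrf2, Abca3 and Serpina1e, at Euclidean distances of 0.10, 0.25, 0.31, 0.34 and 0.44 on the log2 scale. By the probe that stands for each, the CA39 difference was 3.57 for Fndc4, 3.76 for Mllt1, 3.35 for Uhrf2, 3.48 for Abca3 and 3.18 for Serpina1e. Their levels on the untreated array were 7.07 to 7.86, where the 1st percentile of detected signal was 5.88. Mllt1 and Abca3 have no other probe. The second Serpina1e probe differed by 0.89 with CA39, the second Fndc4 probe was detected on no array and the second Uhrf2 probe differed by 1.55.

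The compounds were compared with each other at the same dose and time, in 3 pairs. CA39 stood apart from both AR7 and CA77, and AR7 and CA77 lay close together. Between CA39 and AR7, 3 of 10 members (Lox, P4ha1 and P4ha2) were past 2-fold, all higher with CA39, against 6.15% of gene names. Between CA39 and CA77, 2 of 10 (Lox and P4ha2) were past 2-fold, again higher with CA39, against 6.22%. Between CA77 and AR7, 0 of 10 were past 2-fold, against 2.57%. By more than the tolerance, 8 members were higher with CA39 than with AR7 (26.4% of gene names) and 8 were higher than with CA77 (25.3%). In each case the 8 were all members other than Loxl2 and Plod2. The median difference of the members was 0.51 for CA39 minus AR7, 0.53 for CA39 minus CA77 and 0.00 for CA77 minus AR7. Both pairs with CA39 share its array.

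Lox was 3.50-fold higher with CA39 than with AR7 by its brighter probe and 3.57-fold by the second, and 3.74-fold and 3.83-fold higher than with CA77. P4ha2 was 12.0-fold higher with CA39 than with AR7 and 11.8-fold higher than with CA77. P4ha1 was 2.25-fold higher with CA39 than with AR7 by its brighter probe and 1.78-fold by the second, and 1.64-fold and 1.18-fold higher than with CA77. By the brightest probes these were the 3 largest differences of members between CA39 and either analogue. Serpinh1, which did not differ between CA39 and untreated beyond the tolerance, was 1.40-fold higher with CA39 than with AR7. Loxl4 was 1.62-fold and 1.63-fold higher with CA39 than with AR7 and CA77 by its brighter probe.

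AR7 and CA77 differed by more than the tolerance in 3 members, all higher with CA77, against 15.3% of gene names higher and 19.7% lower. P4ha1 was higher by 0.45 and 0.60 by its probes. Plod1 was higher by 0.33 by its brighter probe and by -0.06, thus not higher, by its second. Serpinh1 was higher by 0.20. For Lox the CA77 minus AR7 difference was -0.10 by either probe, and for P4ha2 it was 0.02, each with a tolerance of 0.16. A difference within the tolerance does not show that the compounds act alike, since the spread between cultures was not measured.

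**Figure D3:**
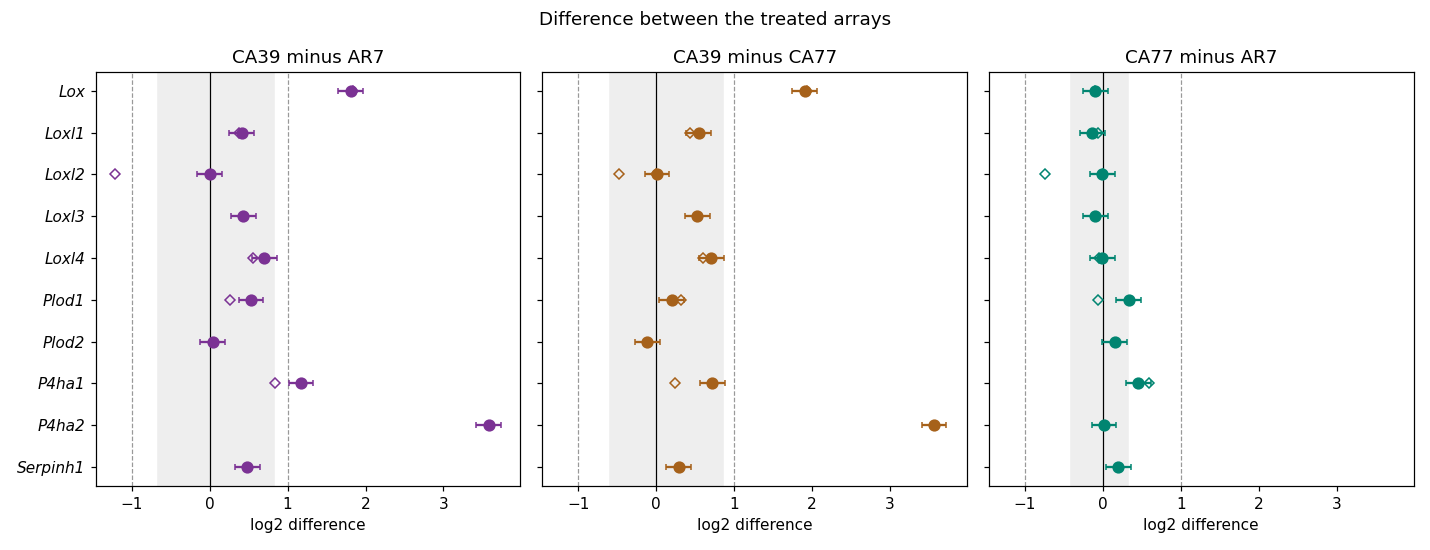
Log2 difference between 2 treated arrays (x axis) of each gene (y axis), for CA39 minus AR7, CA39 minus CA77 and CA77 minus AR7, drawn with the same symbols, tolerance bars (0.16), 5th to 95th percentile bands and 2-fold lines as the plot against untreated. Lox, P4ha1 and P4ha2 lie beyond 2-fold for CA39 minus AR7, and in the pair of CA77 and AR7 the largest filled circle is P4ha1 at 0.45.

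The other genes of collagen modification were taken as 6 lists of pathway genes, to be read against the shares of all gene names given for the members. In the list of other prolyl and lysyl modification enzymes and their partners, 9 of 11 genes could be compared, 6 were higher with CA39 by more than the tolerance and 1 was lower, with a median difference of 0.36. For AR7 and CA77 the medians were -0.05 and -0.06. Plod3, the lysyl hydroxylase that also adds sugars, differed by 0.40 with CA39, 0.05 with AR7 and -0.05 with CA77. P4hb, the shared non-catalytic subunit of prolyl 4-hydroxylase, differed by 0.38 with CA39, -0.16 with AR7 and -0.05 with CA77. The partner subunit of P4ha2 therefore stood far below it in the CA39 difference. P4ha3, another catalytic subunit, differed by 0.23 with CA39 and by -0.41 with AR7, and by 0.36 and -0.26 by its second probe. The only gene of the list past 2-fold was P3h3, of the prolyl 3-hydroxylase family, which was higher by 3.44 with CA39, on a single probe that was not detected with AR7.

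Of 16 genes for collagen folding, export and propeptide removal, 14 could be compared with CA39, of which 8 were higher by more than the tolerance and 2 lower, with a median of 0.27. The median was -0.04 with AR7 and -0.08 with CA77. Adamts2, the protease that removes the amino-terminal propeptide of collagen I, was the only gene of the list past 2-fold, higher by 3.67 with CA39 by its brighter probe and by 1.53 by its second. Adamts14, a related protease, had probes that disagreed with CA39 (-0.86 and 0.86). Tll2, a tolloid protease, could be compared with CA77 alone, where the difference was at least 0.70.

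The list of lysyl oxidase partners, copper delivery and elastic fibre genes held 12 genes, of which 4 were past 2-fold higher with CA39. Postn, encoding periostin, which brings a Lox-activating protease to fibronectin, was detected with CA39 alone, where it was higher by at least 8.31 on the log2 scale. Postn was read from a single probe, so no second probe checks it. Fbln5, the elastic fibre assembly protein fibulin-5, was higher by 2.17 with CA39 and differed by -1.19 with AR7 and -0.77 with CA77. These are values of its brighter probe, and its second probe was detected on no array. Fbn1 (fibrillin-1) differed by 1.85 with CA39, -0.64 with AR7 and -0.52 with CA77, and Fn1 (fibronectin) by 1.47, -0.22 and -0.14. Fbln5, past 2-fold lower with AR7, and Fbn1 were thus higher with CA39 and lower with AR7 and CA77, as Lox was. The median of the list was 0.22 with CA39, -0.18 with AR7 and -0.14 with CA77, so the large values belong to a few of its members. The copper carriers Atp7a, Atox1 and Slc31a1 differed by 0.18, -0.36 and -0.01 with CA39.

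The collagen chains, substrates of the 10 members, were matched for 11 of 12 genes (Col12a1 was not matched). Of the 11, 9 were higher with CA39 by more than the tolerance and 1 was lower, with a median of 0.55, while with AR7 9 were lower and 1 higher, with a median of -0.44, and with CA77 8 were lower and 1 higher, with a median of -0.35. Col1a1 differed by 1.06 with CA39, -1.04 with AR7 and -0.83 with CA77. Col1a2, the partner chain of Col1a1 in collagen I, differed by 0.29, -0.37 and -0.35. Col3a1 differed by 0.51, -0.73 and -0.63. Past 2-fold with CA39 were Col1a1, Col5a2 (1.12, with -0.91 for AR7 and 0.27 for CA77) and Col6a3 (1.19), and lower past 2-fold was Col5a3 (-1.04). The fibrillar chains, like Lox, were thus above untreated with CA39 and below it with AR7 and CA77, except Col5a3, which was below it with all 3, and Col5a2, which was above it with CA77.

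Of 17 other hypoxia-inducible genes, 16 could be compared with CA39, of which 14 were higher by more than the tolerance and 1 was lower. The median was 0.51 with CA39, 0.03 with AR7 and 0.12 with CA77. Car9, encoding carbonic anhydrase IX, was higher by 2.72 with CA39, and Pfkfb3, encoding a glycolytic regulator, was higher by at least 1.47. These were the only 2 past 2-fold, and Pfkfb4 differed by 0.62, -0.43 and -0.52 with CA39, AR7 and CA77. The second probes of Pfkfb3 and Pfkfb4 were detected on no array. The gene lower with CA39 was Adm, which differed by -0.82, -0.45 and -0.31 with CA39, AR7 and CA77. By more than the tolerance, 7 genes of the list were higher and 3 lower with CA77, and 2 were higher and 4 lower with AR7.

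Of 13 TGF-beta response genes, 8 were higher with CA39 by more than the tolerance and 3 were lower, with a median of 0.37. The median was -0.07 with AR7 and -0.27 with CA77. Ccn2, encoding connective tissue growth factor, differed by 1.65 with CA39, -1.18 with AR7 and -0.71 with CA77. Acta2, encoding smooth muscle actin, differed by 0.37, -0.93 and -1.03. As for Ccn2, the untreated level of Lox, itself a known TGF-beta target, lay between that with CA39 and those with the other two compounds.

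**Figure D4:**
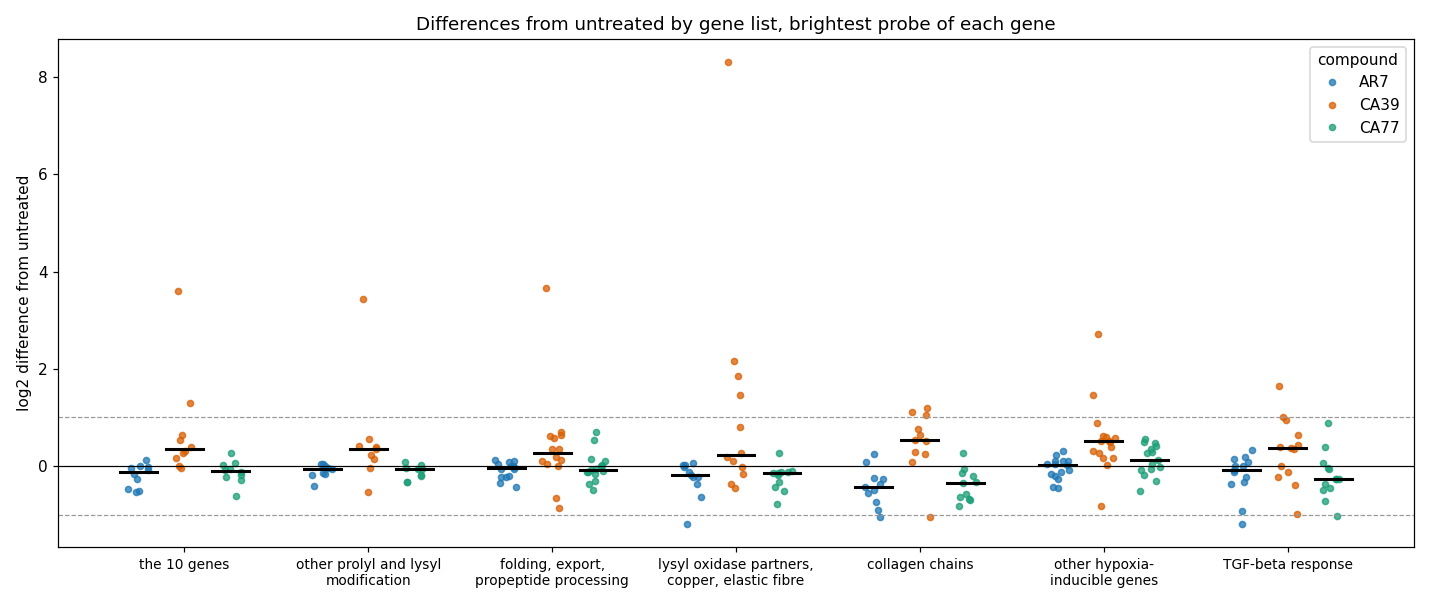
Log2 difference from untreated (y axis) by the brightest probe of each gene, for the 10 genes and the 6 lists (x axis), with AR7 in blue, CA39 in orange, CA77 in green, black bars for the medians and dashed lines at 2-fold, and values against an array without detection drawn at their bound. The CA39 medians lie between 0.22 and 0.55 in all 7 groups, and the highest point is Postn at its bound of 8.31.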

How the data were processed

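Cy3-labelled total RNA was hybridised to 1 slide by the authors, and spots were extracted with Feature Extraction 10.7.3.1 from an array design that cites build mm9. The deposited scanner values are linear-scale intensities of 62976 spots on every array, each spot with its background and quality marks. The deposited series table held the background-subtracted intensity at all spots. The submitters' notes name oligo and RMA, which were not run here because the values are per spot.

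Spot medians were background corrected (limma 3.58.1 in R 4.3.3, normexp, offset 0), control spots were left out, arrays were quantile normalized and intensities put on the log2 scale. Outlier spots were left out after normalization. No spot was saturated. Transcript identifiers were matched to RefSeq symbols of GRCm38.p6, which named 27506 of 55378 probes. Where a gene has several probes the brightest stands for it. The others are reported for the members and for some of the list genes. Values not well above background were raised to the 1st percentile of detected signal (log2 5.88, 6.82, 6.87 and 6.26 on untreated, AR7, CA39 and CA77), and a difference whose higher side was undetected was set to 0. The number of arrays limits the precision. The steps were tested on simulated data.

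The members, lists and floor were chosen with earlier results of these data known. Named besides the members were list genes past 1.5-fold (the 3 of widest range per list), Plod3, P4ha3, P4hb, Col1a1, Col1a2, Col3a1 and the 5 symbols nearest to the member of widest range. Not every gene that this rule covers is reported here, and Fn1, Col5a3, Adm and the copper carriers were named after their values were seen. 11 alternatives were tried.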

Additional observations from a re-analysis of the deposited data

How the results depend on the processing

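The counts, medians and single differences of the members, the counts and medians of the lists and the share of all gene names past the fold threshold were recomputed under 11 alternatives of background correction, scaling, signal, threshold, filter, floor, flagged spots, probe choice and array position, and no called value changed sign. Of 132 counts of members 128 stayed within 1.5 times, and all 66 medians of the members moved by less than the tolerance. With a 1.5-fold threshold, 1 member (Lox) was past it for CA77 against untreated in place of 0, and 4 were past it for CA39 against CA77 in place of 2. With the mean over the detected probes of a gene, members higher by more than the tolerance were 1 with AR7 in place of 0 and 2 with CA77 in place of 1. Of 642 single member differences 630 moved by less than the tolerance. Threshold, filter and floor could not move these differences, since the brightest probe of each member was detected on all arrays. The mean over probes moved Loxl2 with AR7 from -0.05 to 0.58, Loxl4 with CA39 to 0.34 and P4ha1 between CA39 and CA77 to 0.48. Serpinh1 with CA39 was -0.15 from the series table, and its difference between CA39 and CA77 was 0.12 with 75th percentile scaling. Of 396 list medians 389 moved by less than the tolerance, while of 462 list counts and shares of all gene names 77 moved by over 1.5 times. Genes past the fold threshold with CA39 ranged from 1 to 6 in the folding list and from 1 to 6 in the hypoxia list, with the highest counts at the 1.5-fold threshold. With probes in grid rows over 160 alone, which leaves fewer genes, collagen chains past 2-fold with CA39 fell to 1 and lysyl oxidase partners to 2. Among genes detected on all arrays, P3h3 dropped out and the modification list had 0 past 2-fold. The share of all gene names past the fold threshold ranged from 0.81% to 4.71% with AR7, from 3.37% to 10.9% with CA39 and from 0.844% to 6.47% with CA77.

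No replicate was left out. No paired analysis was possible because each group has 1 array. Loxl2, Loxl3 and P4ha1 have no probe in grid rows over 160. Signal over background limits the dim Loxl2 probes, and P4ha2, Loxl3, Plod2 and Serpinh1 rest on 1 probe each.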
